A study of Mus musculus with 2 samples.

Results

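Aqp4, Gja1, Gjb6, Kcnj10, Atp1b2 and Slc4a4 are 6 genes through which astrocytes move water and ions and couple to each other. They were taken by symbol from 2 single-cell RNA sequencing libraries of Sox1-GFP+ mouse cells, and all 6 were present in both. The set was chosen with earlier results of these data known, so counts of its genes past a fold are descriptions only. The libraries list 19608 genes, of which 16301 were found in at least 3 kept cells. Sox1-GFP is a knock-in reporter that places GFP under the control of Sox1, a gene of early neuroepithelium, and the study sorted GFP+ cells by FACS from postnatal tail and adult brain to set neural stem cells of the periphery beside those of the brain. Tissues were dissociated with trypsin, both groups carried the same reporter, and neither had a further allele or treatment. GFP reports where Sox1 is or was lately active and does not by itself name a cell type. With 1 library per tissue, from an experiment that the study ran once, tissue, age, dissection and library cannot be told apart, no test was possible, and the cells of a library are not replicates.

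Astrocytes take up the potassium that active neurons release, carry water across their endfeet at blood vessels, and pass ions and metabolites to their neighbours through gap junctions. Aqp4 is the water channel of the endfoot. Gja1 and Gjb6 encode connexin 43 and connexin 30, gap junction subunits of astrocytes that are also found in skin and other epithelia. Kcnj10 encodes Kir4.1, the inward rectifier of glial potassium uptake, Atp1b2 a glial beta subunit of the sodium pump, and Slc4a4 the sodium bicarbonate cotransporter NBCe1.

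Cells were kept if over 200 but below 4000 genes were found in them and mitochondrial transcripts made up less than 40% of their molecules, which left 7988 brain cells and 1964 tail cells. A kept brain cell had a median of 696 molecules (range 238 to 4460) and a kept tail cell a median of 1282.5 (range 310 to 7338). Of all cell barcodes, 29 occurred in both libraries, 18 of them among kept cells. Levels are in CPM, the error-corrected molecules of a gene in every 1000000 molecules of all genes, summed over the cells of a group. The 8 genes of an astroglial list that holds none of the 6 summed to 42833 CPM in the brain and 1062 in the tail, and 8 and 4 of them reached 100 CPM. The tail library also held cells of other tissues. Its 6 fibroblast list genes summed to 10133 CPM and its 6 keratinocyte list genes to 1455, against 145 and 24.1 in the brain, where Krt5, Krt14 and Krtdap were at 0. Intervals are 95% intervals and cover counting error only. Molecules were counted at the 3′ end, so there is no length term, and a level is compared for a gene between groups of cells rather than between genes. In such sums fewer cells that express a gene and less RNA per cell cannot be told apart, for which shares of cells are given too.

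The 6 genes move together over the groups of cells described later, though their proportions differ among the astroglial groups. The 250 bases before their RefSeq starts (GRCm38.p6) were therefore searched on both strands. The motifs were TTGGC, the core motif of NFI factors, and ATTGTT, a motif of SOX factors. The windows of 4 of the 6 genes were held, and those of Aqp4 and Atp1b2 were not. They are shown 5′ to 3′ on the strand of the gene, with TTGGC or its reverse GCCAA in capitals.
Gja1, chr10:56377050-56377299, plus strand: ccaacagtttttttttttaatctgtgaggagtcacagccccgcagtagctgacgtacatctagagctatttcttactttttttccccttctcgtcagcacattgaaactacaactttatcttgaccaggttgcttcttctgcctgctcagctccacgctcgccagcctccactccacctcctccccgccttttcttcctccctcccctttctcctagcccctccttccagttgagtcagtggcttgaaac
Gjb6, chr14:57133612-57133861, minus strand: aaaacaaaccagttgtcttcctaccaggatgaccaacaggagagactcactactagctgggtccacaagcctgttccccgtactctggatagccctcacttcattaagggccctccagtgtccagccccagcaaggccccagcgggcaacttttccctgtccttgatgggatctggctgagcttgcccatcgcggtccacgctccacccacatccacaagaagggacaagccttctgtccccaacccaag
Kcnj10, chr1:172340960-172341209, plus strand: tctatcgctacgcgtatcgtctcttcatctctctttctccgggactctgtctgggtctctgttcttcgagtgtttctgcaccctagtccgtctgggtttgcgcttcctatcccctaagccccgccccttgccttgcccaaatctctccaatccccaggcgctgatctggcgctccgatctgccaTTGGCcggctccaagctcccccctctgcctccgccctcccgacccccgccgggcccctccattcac
Slc4a4, chr5:88887010-88887259, plus strand: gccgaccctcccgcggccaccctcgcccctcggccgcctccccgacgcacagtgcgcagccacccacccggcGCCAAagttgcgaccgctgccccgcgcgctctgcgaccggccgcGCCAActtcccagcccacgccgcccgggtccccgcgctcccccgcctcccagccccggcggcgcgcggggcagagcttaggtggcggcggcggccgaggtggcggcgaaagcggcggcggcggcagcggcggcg
TTGGC was found 0 times before Gja1 and 0 times before Gjb6, 1 time before Kcnj10 and 2 times before the Slc4a4 start shown. A later Slc4a4 start, with the window chr5:89027716-89027965, had 1. ATTGTT was in none of these windows, the later one included. Of 32851 mouse promoter windows of the same length, 41.5% held TTGGC and 9.42% held ATTGTT. Base composition differed, with 50% G and C and 6 CpG for Gja1, 56.8% and 5 for Gjb6, 62% and 17 for Kcnj10, and 82% and 44 for the Slc4a4 start shown, against 48.8% and 3 for the later one. A match describes letters and is not a binding site.

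On GRCm38 with the GENCODE vM21 annotation the 6 protein-coding genes lie on 6 chromosomes. Aqp4 (ENSMUSG00000024411) spans chromosome 18, 15389496 to 15410982, minus strand. Gja1 (ENSMUSG00000050953) spans chromosome 10, 56377330 to 56402513, plus strand. Gjb6 (ENSMUSG00000040055) spans chromosome 14, 57123303 to 57133611, minus strand. Kcnj10 (ENSMUSG00000044708) spans chromosome 1, 172341210 to 172374085, plus strand. Atp1b2 (ENSMUSG00000041329) spans chromosome 11, 69599736 to 69605942, minus strand. Slc4a4 (ENSMUSG00000060961) spans chromosome 5, 88886818 to 89239653, plus strand.

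The first question was how much of this gene set the sorted cells of each tissue carried. All 6 genes were far higher in the brain library. Aqp4 had 10286 molecules in the brain (1601 CPM) and 77 in the tail (27.3 CPM), 58.6-fold more in the brain (46.8 to 74.3). Gja1 had 20146 molecules in the brain (3136 CPM) and 407 in the tail (144 CPM), 21.7-fold more in the brain (19.7 to 24.0), the lowest ratio of the 6. Gjb6 had 9053 molecules in the brain (1409 CPM) and 36 in the tail (12.8 CPM), 110.3-fold more in the brain (79.6 to 158). The intervals of the 2 connexin ratios did not overlap. Kcnj10 had 4703 molecules in the brain (732 CPM) and 15 in the tail (5.32 CPM), 137-fold more in the brain (83.3 to 246). Atp1b2 had 86030 molecules in the brain (13391 CPM) and 345 in the tail (122 CPM), 109-fold more in the brain (98.4 to 122). Slc4a4 had 17891 molecules in the brain (2785 CPM) and 50 in the tail (17.7 CPM), 157-fold more in the brain (119 to 211). By molecules Atp1b2 came first of the 6 in the brain, with 58.1% of their molecules, and Gja1 in the tail, with 43.8%. Together the 6 genes stood at 23054 CPM in the brain and 330.1 in the tail, 69.8-fold more (65.5 to 74.6). All 6 were at least 4-fold higher in the brain, as were 6.59% of the 11347 genes with at least 50 molecules over both libraries, and 15% of these genes were 4-fold apart in either direction. The median log2 ratio of brain over tail was 6.78 for the 6 genes and -0.28 for all those genes. TMM and median-ratio scaling shifted every log2 ratio by 0.39 and 0.37 toward the brain. Without the cells assigned to fibroblast, keratinocyte, macrophage or microglia, or endothelial lists, the ratio was 205 for Gjb6, 27.9 for Gja1 and 45.9 for Aqp4.

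Which brain cells carried these molecules was asked by grouping cells with at least 1 molecule of exactly 1 of 4 genes outside the set. Agt, the angiotensinogen gene of astrocytes, marked 2248 cells, and Chst2, a sulfotransferase gene, marked 717. Gdf10, a growth factor gene of Bergmann glia, marked 271, and Dlx1, a homeobox gene of forebrain neuroblasts and interneurons, marked 1410. A further 538 cells held more than 1 of these genes and 2804 held none. The astroglial list summed to 57351, 61471 and 65844 CPM in Agt, Chst2 and Gdf10 cells and to 1348 in Dlx1 cells. In Dlx1 cells the neuroblast or neuron list summed to 10909.7 CPM, against 139.8 in Agt cells. A Bergmann glia list summed to 13192 in Gdf10 cells and 372 in Agt cells. That list holds Gdf10 itself, at 3584 CPM in Gdf10 cells and, by the marking, 0 in Agt cells, so part of this contrast was fixed. Chst2 cells also held 3615 CPM of oligodendrocyte list molecules, against 411 in Agt cells, and the part of these in the Chst2 values was not tested.

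Agt cells had the highest level of each of the 6 genes among these groups, but the order of the other astroglial groups differed by gene. Aqp4 stood at 2677 (2599 to 2757) CPM in Agt cells, at 1785 (1635 to 1946) in Gdf10 cells and at 1387 (1302 to 1476) in Chst2 cells. Gja1 stood at 5205 (5096 to 5316) in Agt cells, 3525 (3388 to 3666) in Chst2 cells and 2315 (2143 to 2497) in Gdf10 cells. Gjb6 stood at 2392 (2318 to 2468), 1532 (1442 to 1626) and 695 (603 to 798) in the same order. Both connexins were thus lowest of the 3 groups in Gdf10 cells, in which the water channel was above its level in Chst2 cells. Kcnj10 stood at 1270.0 (1216 to 1325) in Agt cells, 631 (574 to 692) in Chst2 cells and 457 (382 to 542) in Gdf10 cells. Atp1b2 stood at 22283 (22056 to 22511) in Agt cells, with 12479 (12221 to 12742) in Chst2 cells and 12525 (12119.9 to 12939) in Gdf10 cells. Slc4a4 stood at 4628 (4525 to 4732) in Agt cells, 4314 (4078 to 4561) in Gdf10 cells and 2381 (2269 to 2498) in Chst2 cells. The pump subunit did not differ between Chst2 and Gdf10 cells beyond counting error, and the cotransporter in Gdf10 cells came near its level in Agt cells. Cells with none of the 4 markers, a mixture, had 3032 (2957 to 3109.6) for Gja1 and 1431 (1379 to 1484) for Gjb6, the latter overlapping with Chst2 cells.

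**Figure D1:**
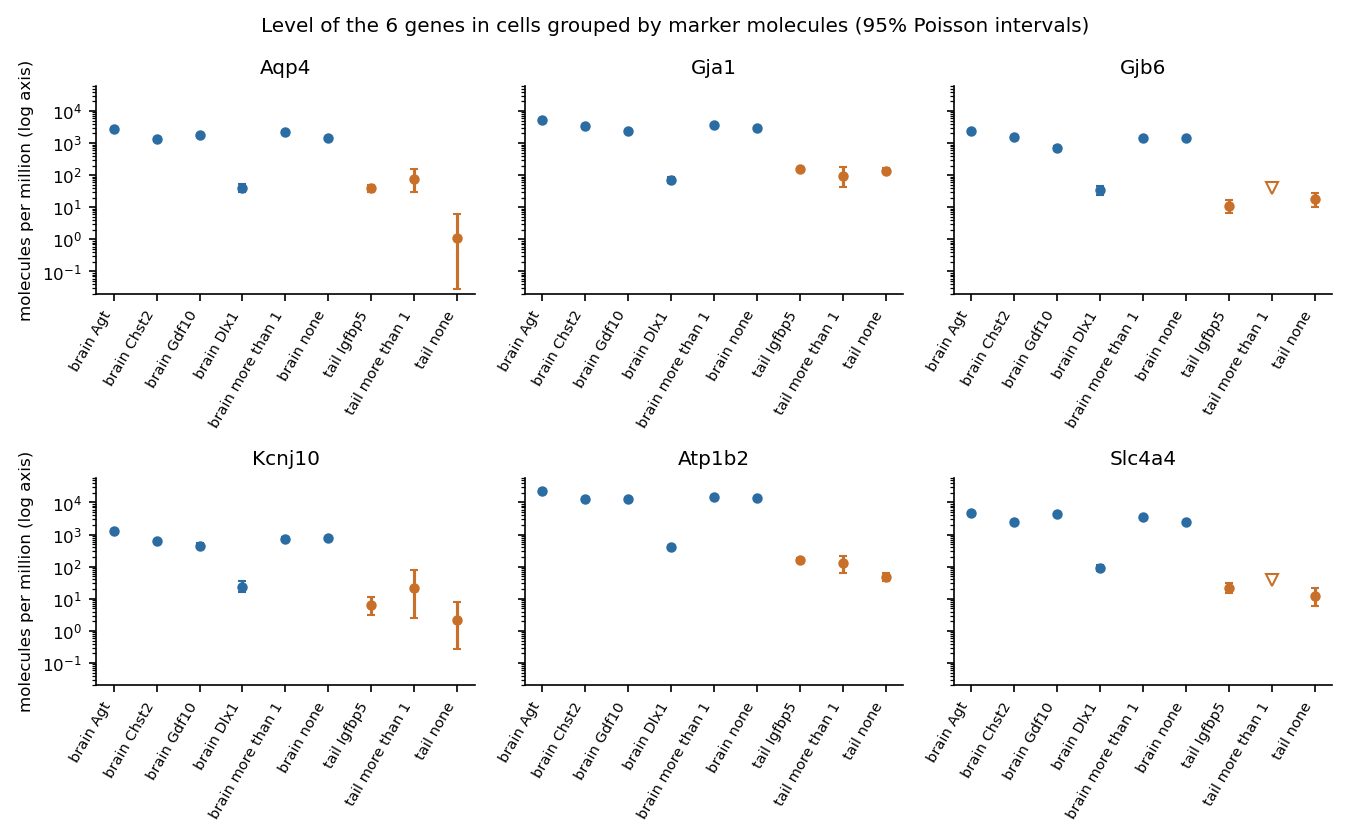
CPM of each of the 6 genes (log axis) in cells grouped by molecules of Agt, Chst2, Gdf10 or Dlx1 in the brain (blue) and of Igfbp5 or Tmem212 in the tail (orange), with 95% Poisson intervals, open triangles being the upper bound of groups with 0 molecules. Agt, Chst2 and Gdf10 cells lie above Dlx1 cells and above the tail groups for every gene, and the 15 tail cells with Tmem212 and no Igfbp5 molecule are left out.

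Relative to Agt cells, the 6 genes kept within a narrow band in Chst2 cells and spread widely in Gdf10 cells. In Chst2 cells the ratio ran from 0.497 (0.448 to 0.550) for Kcnj10 to 0.677 (0.647 to 0.708) for Gja1, and was 0.570 (0.560 to 0.580) for the sum. In Gdf10 cells the ratio of the sum was nearly the same, 0.574 (0.560 to 0.589). The single genes in Gdf10 cells were at 0.291 (0.251 to 0.335) for Gjb6, 0.360 (0.299 to 0.429) for Kcnj10, 0.445 (0.410 to 0.481) for Gja1, 0.562 (0.543 to 0.582) for Atp1b2, 0.667 (0.608 to 0.731) for Aqp4 and 0.932 (0.877 to 0.990) for Slc4a4. The small deficit of Slc4a4 turned with the marking, since its ratio was 1.01 in cells with at least 2 marker molecules. The Gjb6 ratio was 0.190 in such cells and 0.117 between the clusters richest in Gdf10 and in Agt, which were built without the 6 genes. None of the 6 was 4-fold apart from Agt cells in either group, as were 1.74% of 5854 genes for Chst2 cells and 5.23% of 5184 genes for Gdf10 cells. Between Gdf10 and Chst2 cells directly, the ratio was 1.81 (1.68 to 1.95) for Slc4a4 and 1.29 (1.15 to 1.43) for Aqp4, and below 1 for Gjb6, at 0.454 (0.389 to 0.528), for Gja1, at 0.657 (0.602 to 0.715), and for Kcnj10, at 0.724 (0.592 to 0.881). For Atp1b2 it was 1.0 (0.965 to 1.04) and for the sum 1.01 (0.978 to 1.04). These groups thus held like totals of the set in unlike proportions.

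**Figure D2:**
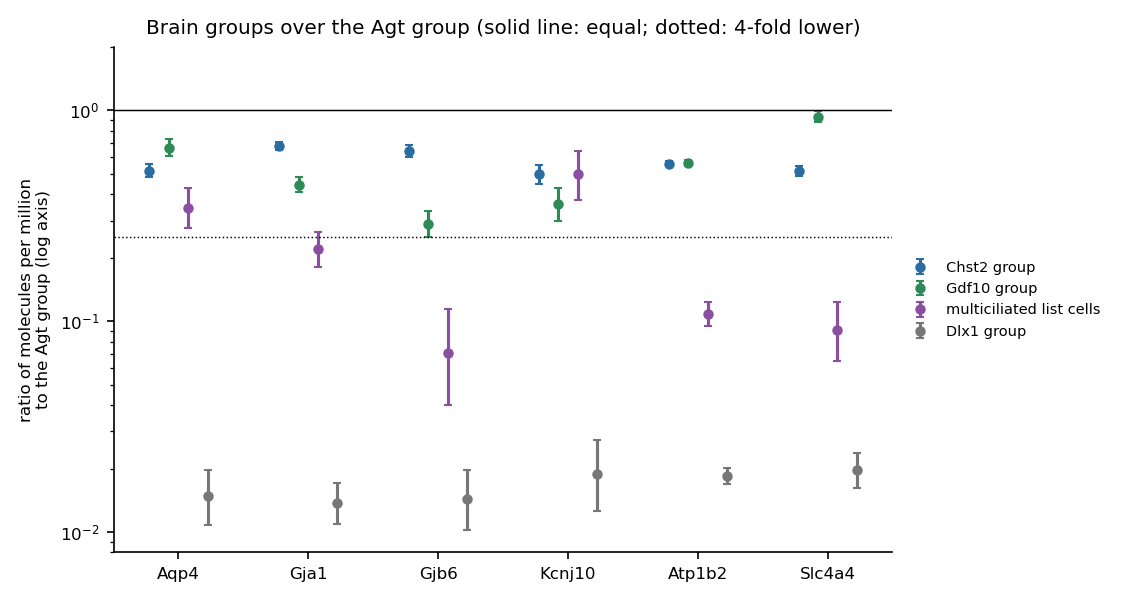
Ratio of CPM to Agt cells (log axis) for the 6 genes in other groups of brain cells, with 95% conditional binomial intervals, the solid line marking equal levels and the dotted line a 4-fold lower one. Chst2 cells stay between 0.497 and 0.677, Gdf10 cells run from 0.291 (Gjb6) to 0.932 (Slc4a4), and Dlx1 cells lie between 0.0137 and 0.0197.

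Dlx1 cells had little of any of the 6. Aqp4 stood there at 39.5 (28.9 to 52.7) CPM, Gja1 at 71.3 (56.8 to 88.4) and Gjb6 at 34.4 (24.5 to 46.8). Kcnj10 stood at 24.0 (16.0 to 34.8), Atp1b2 at 411 (375 to 450.0) and Slc4a4 at 91.0 (74.5 to 110.1). The ratio to Agt cells ran from 0.0137 (0.0109 to 0.0170) for Gja1 to 0.0197 (0.0161 to 0.0238) for Slc4a4. All 6 were at least 4-fold lower in Dlx1 cells, as were 15.1% of 7379 genes. Atp1b2 had most of the set's molecules in Dlx1 cells, as it did in the library. Gja1 made up 10.6% of their molecules in Dlx1 cells and 13.6% in the library, Gjb6 5.12% and 6.11%, Atp1b2 61.3% and 58.1%, and Slc4a4 13.6% and 12.1%. The 42 brain cells of the microglia list, which should lack these genes, held 7 molecules of the 6, or 246 (99.1 to 508) CPM, against 672 (625 to 720.4) in Dlx1 cells. The ratio of the sum in Dlx1 over Agt cells was 0.0175 (0.0163 to 0.0187), and was 0.0110 without called doublets, 0.00927 between clusters and 0.0451 where cells with further markers were let in. The part of free RNA in the remaining molecules was not tested.

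Shares of cells that held a molecule gave like orders at equal depth. A random draw of 400 molecules was taken from every cell, without 718 shallower brain cells and 19 tail cells. Of 2084 thinned Agt cells, 99.9% (99.6% to 99.97%) held Atp1b2, 84.5% (82.8% to 86.0%) Gja1, 80.1% (78.4% to 81.8%) Slc4a4, 61.2% (59.1% to 63.3%) Aqp4, 59.0% (56.8% to 61.1%) Gjb6 and 37.8% (35.7% to 39.9%) Kcnj10. Of 260 Gdf10 cells, 76.9% (71.3% to 81.9%) held Slc4a4 and 24.6% (19.5% to 30.3%) held Gjb6. Of 692 Chst2 cells, 56.1% (52.3% to 59.8%) held Slc4a4 and 41.8% (38.1% to 45.5%) held Gjb6. Slc4a4 and Gjb6 hence ranked Gdf10 and Chst2 cells in opposite orders, as their levels did. Of 1289 Dlx1 cells, 0.698% (0.320% to 1.32%) held Aqp4, 1.94% (1.26% to 2.85%) Gja1, 1.01% (0.538% to 1.72%) Gjb6, 1.01% (0.538% to 1.72%) Kcnj10, 7.37% (6.0% to 8.93%) Atp1b2 and 2.95% (2.09% to 4.02%) Slc4a4. Microglia list cells give the background. Of 41 thinned cells, 1 held Aqp4, 1 Gja1 and 1 Slc4a4, each a share of 2.44% (0.0617% to 12.9%), and 0 held Gjb6, Kcnj10 or Atp1b2, which allows a share of up to 7.32% by the limit of 3 counts and 8.60% by the exact interval. With so few microglia list cells, the intervals of all 6 Dlx1 shares overlapped with theirs, and no difference in shares was detectable. By level, Atp1b2 stood at 411 (375 to 450.0) CPM in Dlx1 cells and 35.2 (0.891 to 196), from 1 molecule, in microglia list cells. These intervals did not overlap, and those of the other genes did. In the cluster richest in Dlx1, Atp1b2 stood at 202 (174 to 232), which overlapped with microglia list cells, so this separation rests on the marking. Median depth before thinning was 682 molecules in Agt, 903 in Chst2, 985 in Gdf10, 694 in Dlx1 and 631.5 in microglia list cells. The unthinned Gjb6 shares were 75%, 65.8%, 38.0%, 2.20% and 2.38% in the same groups, and the unthinned Slc4a4 shares 89.3%, 76.6%, 89.7%, 4.47% and 2.38%.

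**Figure D3:**
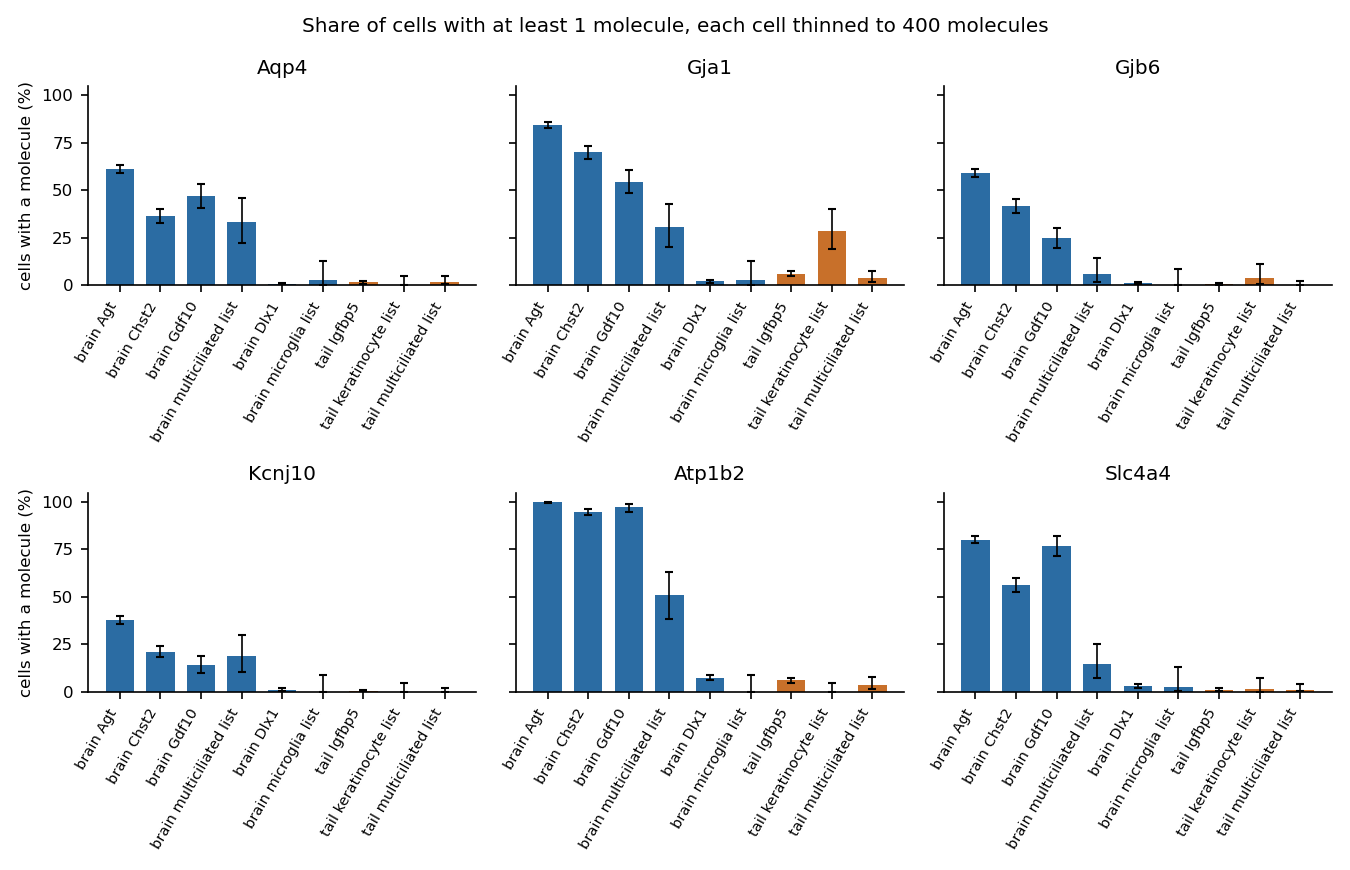
Percent of cells with at least 1 molecule of each of the 6 genes after thinning each cell to 400 molecules, in brain (blue) and tail (orange) groups chosen by a marker or a marker list, with 95% Clopper-Pearson intervals. Shares in Agt cells run from 37.8% (Kcnj10) to 99.9% (Atp1b2), and of the tail groups the keratinocyte list cells have the highest Gja1 share, 28.6%.

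Most astroglial cells held several of the genes at once. In thinned Agt cells the median was 4 of the 6 genes per cell, 93.8% of cells held 3 or more, and 212 cells, or 10.2%, held all 6. The median was 3 in Chst2 cells and 3 in Gdf10 cells, with 71.8% and 70.8% at 3 or more. It was 0 in Dlx1 cells, of which 0.853% held 3 or more. Among the 400 molecules of a thinned cell the 6 genes had a median of 15 in Agt cells (lowest 0, highest 39), 8 in Chst2 cells, 9 in Gdf10 cells and 0 in Dlx1 cells. The connexins were also set against each other within cells. Of thinned Agt cells, Gjb6 was held by 59.5% (57.2% to 61.8%) of those with Gja1 and 55.9% (50.3% to 61.3%) of those without. In Gdf10 cells the shares were 35.2% (27.4% to 43.7%) and 11.9% (6.64% to 19.1%). In Chst2 cells they were 45.5% (41.0% to 50.01%) and 33.2% (26.8% to 40.0%). The intervals overlapped in Agt cells and did not in Gdf10 or Chst2 cells. Kcnj10 was held by 38.2% (35.6% to 41.0%) of Agt cells with Aqp4 and 37.1% (33.8% to 40.6%) of those without, and by 13.1% (7.69% to 20.4%) and 14.5% (9.08% to 21.5%) of Gdf10 cells. These shares describe sparse counts.

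The ratio of 2 messages within a group does not depend on the scale between groups. There were 46.0 (44.3 to 47.7) connexin 30 messages (Gjb6) per 100 connexin 43 messages (Gja1) in Agt cells, 43.5 (40.4 to 46.7) in Chst2 cells and 48.2 (32.2 to 71.1) in Dlx1 cells, with overlapping intervals. In the clusters richest in Agt and in Chst2 the ratios were 48.5 (46.3 to 50.9) and 38.0 (36.0 to 40.1), and these intervals did not overlap. Gdf10 cells had 30 (25.5 to 35.2), below Agt and Chst2 cells, and the cluster richest in Gdf10 had 17.4. Aqp4 per 100 Kcnj10 molecules, the water channel over the potassium channel, was 211 (200.1 to 222) in Agt cells and 219.9 (196 to 246) in Chst2 cells. It was 391 (322 to 477) in Gdf10 cells. In both ratios the Gdf10 cells stood apart from the other 2 astroglial groups beyond counting error.

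**Figure D4:**
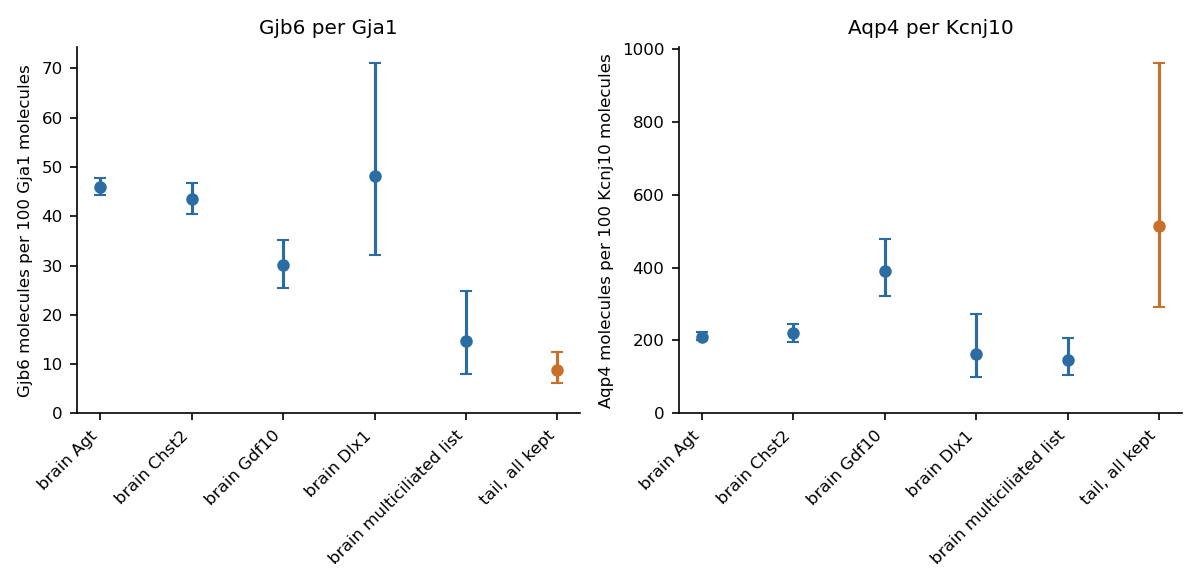
Gjb6 molecules per 100 Gja1 molecules (left) and Aqp4 molecules per 100 Kcnj10 molecules (right) in groups of brain cells (blue) and tail cells (orange), with 95% conditional binomial intervals and axes from 0. Gdf10 cells stand apart from Agt and Chst2 cells in both panels, at 30 and 391, and the whole tail has 8.85 Gjb6 per 100 Gja1 molecules.

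The 71 brain cells assigned by multiciliated ependymal list genes, of the kind that lines the ventricles and bears motile cilia, had a profile of their own. Kcnj10 stood there at 631 (482 to 812) CPM and Aqp4 at 926 (742 to 1140.3). Gja1 stood at 1146 (941 to 1383), Gjb6 at 168 (96.2 to 273), Atp1b2 at 2419 (2117 to 2753) and Slc4a4 at 421 (301 to 573). The channel genes kept more of their Agt cell level than the others. The ratio to Agt cells was 0.497 (0.378 to 0.642) for Kcnj10, 0.346 (0.277 to 0.427) for Aqp4, 0.220 (0.181 to 0.266) for Gja1, 0.109 (0.0949 to 0.124) for Atp1b2, 0.0909 (0.0649 to 0.124) for Slc4a4 and 0.0703 (0.0402 to 0.114) for Gjb6. The last 4 were at least 4-fold lower than in Agt cells, as were 11.1% of 4775 genes. There were 14.7 (8.10 to 24.9) Gjb6 per 100 Gja1 molecules, below Agt, Chst2 and Gdf10 cells. The 69 brain cells of the oligodendrocyte list held 700.4 (543 to 889) CPM of Kcnj10, 1537 (1298 to 1806) of Gja1 and 679 (524 to 866) of Gjb6. Whether astroglial molecules in the same wells entered these values was not tested.

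In the tail, cells were marked by Igfbp5, which encodes a binding protein of insulin-like growth factors, or by Tmem212, a gene of multiciliated cells. Igfbp5 without Tmem212 marked 1324 cells, a mixture. By the lists 97 of them were fibroblast, 15 keratinocyte, 103 neuroblast or neuron and 103 multiciliated list cells, and 1005 were unassigned. Their list sums were 1410.2 CPM for the astroglial, 9666 for the fibroblast, 603 for the keratinocyte and 761 for the neuroblast or neuron list, and the part of these cells in the values of the 6 genes was not tested. Of the 69 cells with Tmem212, 54 also held Igfbp5 and 15 did not, and 571 cells held neither. In Igfbp5 cells Aqp4 stood at 38.9 (30.2 to 49.2) CPM, Gja1 at 152 (135 to 171) and Gjb6 at 11.3 (6.88 to 17.4). Kcnj10 stood at 6.20 (3.09 to 11.1), Atp1b2 at 162 (144 to 182) and Slc4a4 at 22.0 (15.6 to 30). Brain Agt cells had more of every gene, with ratios to tail Igfbp5 cells of 34.2 (30.3 to 38.8) for Gja1, 68.9 (54.3 to 88.7) for Aqp4, 138 (123 to 155) for Atp1b2, 205 (114 to 411) for Kcnj10, 211 (154 to 296) for Slc4a4 and 212 (137 to 348) for Gjb6. All 6 passed 4-fold, as did 8.21% of 8493 genes in that direction. Set against brain Dlx1 cells, the tail Igfbp5 cells did not differ in Aqp4 beyond counting error and had more Gja1. The ratio of Dlx1 over Igfbp5 cells was 1.02 (0.684 to 1.5) for Aqp4, 0.469 (0.362 to 0.601) for Gja1, 2.54 (2.19 to 2.96) for Atp1b2, 3.05 (1.74 to 5.51) for Gjb6, 3.88 (1.87 to 8.64) for Kcnj10 and 4.14 (2.85 to 6.15) for Slc4a4. Of the 5 genes with at least 50 molecules over both groups, all but Kcnj10, Slc4a4 alone passed 4-fold there, beside 4.54% of 8178 genes. By the clusters richest in each marker, Slc4a4 stood at 62.9 (47.9 to 81.2) CPM for Dlx1 and 30.6 (16.3 to 52.3) for Igfbp5. Aqp4 stood at 21.3 (13.0 to 32.9) and 42.3 (25.1 to 66.9), and Gja1 at 29.9 (19.8 to 43.2) and 143 (110 to 184). Of the 6 genes only Gja1 had intervals apart there, so the other ratios rest on the marking.

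The tail's Aqp4 was almost wholly in cells with Igfbp5, which held 66.4% of all tail molecules. Of 77 molecules, 69 were in cells with Igfbp5 alone, 7 in cells with Igfbp5 and Tmem212, and 1 in cells with neither, where the level was 1.09 (0.0277 to 6.09) CPM. Of the 67 tail cells with Aqp4, 58 held 1 molecule, and no cell held more than 3. Atp1b2 also differed, with 49.2 (35.9 to 65.9) CPM in cells with neither marker against 162 in Igfbp5 cells. Gja1 did not differ beyond counting error, with 139 (116 to 165) in cells with neither marker. The latter are a mixture of 63 keratinocyte list cells, 286 of the neuroblast or neuron list, 97 of the fibroblast list and others, and tail Gja1 stood at 495 CPM in the keratinocyte and 21.3 in the neuroblast or neuron list. Kcnj10, with 15 tail molecules in 14 cells, was too sparse to rank the marker groups. The 15 cells with Tmem212 alone held 2 molecules of the 6, 1 of Gja1 and 1 of Atp1b2. All 69 Tmem212 cells together had 54.8 (22.0 to 113) CPM of Aqp4, 78.3 (37.5 to 144) of Gja1 and 102 (54.2 to 174) of Atp1b2, and 0 molecules of Gjb6 and Slc4a4. The ratio of the sum in Tmem212 over Igfbp5 cells was 0.155 (0.0187 to 0.561) with disjoint groups, 0.223 between clusters and 0.645 with all Tmem212 cells, so its size rests on the marking.

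At equal depth few tail cells held any of the set. Of 1312 thinned Igfbp5 cells, 6.02% (4.80% to 7.45%) held Gja1, 5.95% (4.73% to 7.36%) Atp1b2, 1.37% (0.815% to 2.16%) Aqp4, 0.991% (0.529% to 1.69%) Slc4a4, 0.381% (0.124% to 0.887%) Gjb6 and 0.305% (0.0831% to 0.779%) Kcnj10. Unthinned, at a median of 1218.5 molecules, 4.46% (3.41% to 5.71%) of them held Aqp4 and 0.755% (0.363% to 1.38%) held Kcnj10. The 194 tail cells of the fibroblast list, at a median of 1908 molecules, should lack both genes, and 1 of them held Aqp4 (0.515%, 0.0130% to 2.84%) and 0 held Kcnj10, which allows up to 1.55% by the limit of 3 counts and 1.88% by the exact interval. Of these fibroblast list cells 97 are Igfbp5 cells themselves, so the groups share cells. With that, the Aqp4 interval of Igfbp5 cells lay above that of fibroblast list cells, and the Kcnj10 intervals overlapped. At least 1 of the 6 genes was held by 11.7% (10.3% to 13.2%) of thinned tail cells and 76.8% (75.8% to 77.7%) of thinned brain cells, and at full depth by 30.4% and 78.4%. Of the thinned tail cells 88.3% held none of the genes, and 5 held 3.

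Of the tail's connexin messages a large share lay in the 78 cells of the keratinocyte list, which held 6.59% of all tail molecules. They held 92 of 407 Gja1 molecules (22.6%, 18.6% to 27.0%) and 17 of 36 Gjb6 molecules (47.2%, 30.4% to 64.5%). Of the other genes they held 5 of 50 Slc4a4 molecules, 1 of 345 Atp1b2 molecules and 0 of Aqp4 and Kcnj10. In these cells Gja1 stood at 495 (399 to 607) CPM and Gjb6 at 91.5 (53.3 to 147), and their ratios to Igfbp5 cells were 3.26 (2.54 to 4.14) and 8.12 (4.0 to 16.3). The Gjb6 ratio rests on 17 and 20 molecules, and 15 of the 78 cells also belong to the Igfbp5 cells. Of the 3 genes of the set with at least 50 molecules over both groups, Aqp4, Gja1 and Atp1b2, 0 were at least 4-fold higher in keratinocyte list cells, beside 1.66% of 6499 genes. Gjb6 is not among the genes so counted. Keratinocytes are known to join through both connexins. Of 77 thinned keratinocyte list cells 28.6% (18.8% to 40.0%) held Gja1 and 3.9% (0.811% to 11.0%) held Gjb6. Unthinned, at a median of 2199.5 molecules, 56.4% held Gja1 and 16.7% held Gjb6, against 15.9% and 1.28% of Igfbp5 cells. Fibroblast list cells had 151 (116 to 192) CPM of Gja1, as Igfbp5 cells did, and 34.7 (19.4 to 57.3) of Atp1b2. Tail cells of the neuroblast or neuron list had 21.3 (11.0 to 37.2) of Gja1 and 74.5 (53.7 to 101) of Atp1b2.

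**Figure D5:**
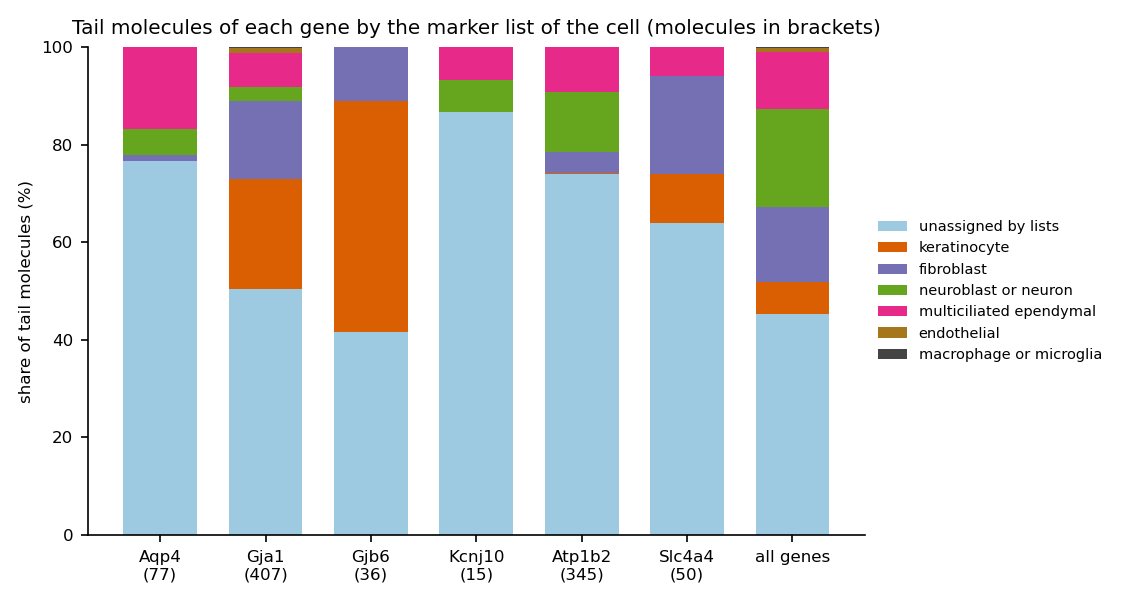
Share of the tail molecules of each of the 6 genes, and of all genes, by the marker list that the cell was assigned to, with the number of molecules in brackets. Keratinocyte list cells hold 22.6% of Gja1 and 47.2% of Gjb6 molecules, beside 6.59% of all molecules, and none of Aqp4 or Kcnj10.

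Multiciliated list cells were found in both libraries, 71 in the brain and 188 in the tail, which let the set be compared between cells assigned by the same list. Of the 188 tail cells, 103 held Igfbp5 without Tmem212 and 27 held neither marker. How alike the cells of the 2 libraries were was not tested. All 6 genes were higher in the brain cells. In the tail cells Aqp4 stood at 39.7 (21.2 to 67.9), Gja1 at 85.6 (56.9 to 124), Atp1b2 at 97.8 (66.9 to 138) and Slc4a4 at 9.17 (1.89 to 26.8) CPM. The ratio of brain over tail was 23.3 (12.9 to 45.5) for Aqp4, 13.4 (8.78 to 21.1) for Gja1, 24.7 (17.0 to 37.0) for Atp1b2 and 45.9 (14.6 to 232) for Slc4a4. Kcnj10 had 60 molecules in the brain cells and 1 in the tail cells, a ratio of 206 (35.7 to 8289.6). Gjb6 had 16 and 0, a ratio whose interval began at 13.3. The 4 genes with at least 50 molecules over both groups, Aqp4, Gja1, Kcnj10 and Atp1b2, all passed 4-fold toward the brain, as did 3.71% of 1645 genes. Gjb6 and Slc4a4 had fewer and are not counted. The part of free astroglial RNA in the brain cells was not tested.

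Clusters built within each library without the 6 genes gave a finer view. Among brain clusters, cluster 1, of 1427 cells led by Aldh1a1 and Igfbp2, had 3046 CPM of Aqp4, 1399 of Kcnj10 and 26669 of Atp1b2. Cluster 2, of 1382 cells led by Igsf1, Itih3 and Agt, had 5433 of Gja1, 2636 of Gjb6 and 4952 of Slc4a4. Cluster 6, of 291 cells led by Gria4 and Gdf10, had 309 of Gjb6 and 4707 of Slc4a4, so the contrast of connexin 30 and cotransporter held there. In the tail, cluster 9, of 80 cells led by Olig2 and Olig1, had 79.1 (34.2 to 156) of Kcnj10, from 8 molecules, and 455 (333 to 607) of Atp1b2. Cluster 3, of 197 cells led by Pdyn and Sulf1, had 111 (73.9 to 161) of Aqp4. Cluster 8, of 93 cells led by Krt5 and Krt14, had 481 (393 to 584) of Gja1 and 84.1 (49.8 to 133) of Gjb6. Cluster 9 had 366 (258 to 504) of Gja1 and 49.4 (16.1 to 115) of Aqp4, with intervals that overlapped those of clusters 8 and 3. It held 8 of the tail's 15 Kcnj10 molecules.

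The genes whose levels ran most like those of the set were sought among 7072 genes over the 9 marker groups of at least 50 cells, by Pearson's r of log2(CPM + 20). The 9 points come from 2 libraries, 6 of them from the brain. Nearest to Aqp4 were Ckb (r = 0.995), the brain creatine kinase, Ttyh1 (0.994) and Epdr1 (0.992). Nearest to Gja1 were Soat1 (0.997), Clptm1 (0.996) and Tmbim1 (0.995). Nearest to Gjb6 were Acsl6 (0.997), a fatty acid ligase gene, Slitrk2 (0.997) and Entpd2 (0.997). Acsl6, picked by its r over these same groups, had the group order of Gjb6, at 1266 in Agt, 1005 in Chst2 and 429 in Gdf10 cells. Nearest to Kcnj10 were Tmem229a (0.997), Slc39a12 (0.996) and AI464131 (0.995). For Atp1b2 they were Itgb8 (0.995), Epdr1 (0.995) and Hepacam (0.994), and for Slc4a4 Kcnip3 (0.994), Slc30a1 (0.993) and Kcnn2 (0.993). Among the 6 genes r ran from 0.951 between Aqp4 and Gjb6 to 0.989 between Atp1b2 and Slc4a4. For all 6, Dlx1 cells and the tail groups lay far below Agt, Chst2 and Gdf10 cells, a step that enters each r. How many of the 7072 genes reach such values is not given.

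Of 59 further genes of water, ion and gap junction handling, 44 had at least 50 molecules over both libraries. Of these, 17 passed 4-fold toward the brain and 3 were so in the tail, beside 6.59% and 8.42% of all genes, and their median log2 ratio of brain over tail was 1.18. Of the other connexins and pannexins 4 reached 50 molecules, among them Gjc3, an oligodendrocyte connexin, higher in the brain (84.8-fold, 23.3 to 703), and Gjc1, connexin 45, higher in the tail (9.84-fold, 7.35 to 13.4). Gjc3 had 574 CPM in Gdf10 cells and 26.5 in Agt cells, the reverse of the Gjb6 order. Of 10 genes of water and its anchoring at endfeet, 3 were 4-fold higher in the brain, with Aqp9 first (11.8-fold, 6.11 to 26.1), and 1 in the tail, the water channel Aqp1 (44.0-fold, 20.8 to 111). Of 7 glial potassium channels, 4 were 4-fold higher in the brain, with Kcnn2 first (78.3-fold, 42.5 to 164), while Kcnk2 was higher in the tail (1.77-fold, 1.54 to 2.04). Of 11 genes of bicarbonate, proton and chloride handling, 4 were 4-fold higher in the brain, with Car2, a carbonic anhydrase, first (23.8-fold, 18.5 to 31.2). Hepacam, an astrocyte adhesion protein, was higher in the brain (41.6-fold, 30.1 to 59.2), and so was the chloride channel Clcn2 (1.96-fold, 1.26 to 3.16).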

How the data were processed

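The 2 single-cell libraries, Sox1-GFP+ cells of mouse brain and tail, were analysed. The deposited files hold counts of molecules per cell and gene, which the authors made with the BD Rhapsody WTA Analysis Pipeline (version 1.10.1 per the file headers, on GRCm38), after identifier correction. The labels also name UMI-tools 1.0.1, STAR 2.7.1a and featureCounts 1.6.4. Cells needed over 200 but below 4000 genes and less than 40% mitochondrial molecules, which kept 7988 of 12111 and 1964 of 2469 barcodes. Doublets were called with Scrublet (76 and 5 cells) and kept. Counts were summed by library, marker gene, marker list (at least 3 molecules of a list and more than of any other list) or cluster (scanpy 1.11.5, Leiden, resolution 0.6, without the 6 genes). Intervals were exact Poisson, conditional binomial or Clopper-Pearson at 95%. Genes named beside the 6 were, per sublist, the strongest in each direction by the interval bound nearer to 1, and the 3 nearest in pattern. Some genes that this rule names are not reported here. Scripts were tested on simulated data. TMM factors came from edgeR 4.0.16. Alternatives were other scalings, filters, groupings and depths. The members and lists were chosen with earlier results of these data known.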

Additional observations from a re-analysis of the deposited data

Results flagged for a closer look

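Barcodes left out of every comparison for 40% or more mitochondrial molecules also carried the gene set. In the 3428 such brain barcodes the 6 genes summed to 12949 (12533 to 13375) per 1000000 molecules that were not mitochondrial, against 27009 in kept brain cells. In the 356 such tail barcodes they summed to 555 (296 to 949), from 13 molecules, against 379 in kept tail cells, so the difference between the libraries was seen in them too. These values were singled out because they lie in data that the report does not use and are above the limit that a count of 0 allows.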

How the results depend on the processing

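Of 144 recomputed values of the summary results 103 stayed within their counting interval, or, for the count of genes, within 1.5 times, 41 moved past it and 0 turned direction, and of 276 values of single genes in groups 167 stayed, 108 moved and 1 turned. That value was the Slc4a4 ratio of Gdf10 over Agt cells, 1.01 with at least 2 marker molecules against 0.932. For the brain over tail ratio, TMM gave 76.5 for Aqp4, 28.4 for Gja1, 143 for Atp1b2 and 91.2 for the sum, and median-ratio scaling 75.5, 28.0, 141 and 90.0. Leaving out cells of non-neural lists gave 45.9 for Aqp4, 27.9 for Gja1, 205 for Gjb6 and 88.6 for Atp1b2, a mean over cells 24.5 for Gja1, and cells under 20% mitochondrial molecules 93.4 for Atp1b2 and 62.3 for the sum. The sum in Chst2 over Agt cells was 0.652 with other markers allowed, 0.591 between clusters and 0.557 under 20% mitochondrial molecules, and in Gdf10 over Agt cells 0.640 with other markers allowed. In Dlx1 over Agt cells it was 0.0193 with at least 2 marker molecules, 0.0451 with other markers allowed, 0.00927 between clusters, 0.0160 under 20% mitochondrial molecules and 0.0110 without called doublets, and in Tmem212 over Igfbp5 cells 0.645 with other markers allowed. Gjb6 per 100 Gja1 molecules was 42.1 in the brain and 43.6 in Agt cells under 20% mitochondrial molecules. By clusters it was 48.5 for Agt, 38.0 for Chst2 and 17.4 for Gdf10, and with at least 2 marker molecules 37.4 for Chst2 and 23.2 for Gdf10. Aqp4 per 100 Kcnj10 molecules was 193 in the Agt cluster and 256 in Chst2 cells with other markers allowed. The share of cells with any of the 6 was 78.4%, 75.2% and 79.2% in the brain without thinning and at 300 and 600 molecules, and 30.4%, 9.06% and 16.1% in the tail. With a minimum of 200 molecules, at which fewer genes were tested, 913 genes were 4-fold apart, against 1703. The cause of these shifts was not tested. With 1 library per tissue, intervals hold counting error alone, and tail counts of 15 for Kcnj10 and 36 for Gjb6 limit what groups of tail cells can show. No paired analysis was possible because each group had 1 library and no result came from a test.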
